A study of Mus musculus with 10 samples.

Results

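The 10 genes described here are primitive endoderm and basement membrane genes, chosen by symbol from a table of 54456 genes: the transcription factors Gata4, Gata6 and Sox17, the endocytic genes Dab2 and Lrp2, the laminin chains Lama1 and Lamb1, the type IV collagen chains Col4a1 and Col4a2, and the matrix glycoprotein Sparc. All 10 were found and all 10 were among the 15240 genes tested, those with a mean of at least 10 normalized counts. Levels came from stranded total RNA-seq of mouse embryonic stem cells with a C57BL/6J background, in 7 libraries. The study carries engineered forms of the Taf1 locus that model X-linked dystonia parkinsonism, a disease tied to an SVA retrotransposon. The lines compared were conv-dSVA_F&D, conv-dSVA_F and conv-dSVA_D, with 2 libraries each, and the wild-type line MK6, with 1 library.

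The 3 converted lines share a loxP labelled Taf1_i24, the plasmids pSpCas9, pSpCas9GFP and pCAGiCre, each marked null, the LPSwapinRed_pUC19 cassette at Taf1_3_4, and a Taf1_humanization_hTAF1 payload at Taf1_1_2 marked as converted. The payload of conv-dSVA_F&D is marked mousifiedSVAdel and dSVA2, that of conv-dSVA_F mousifiedSVAdel, and that of conv-dSVA_D mousified and dSVA2. MK6 is labelled wild type. All 4 lines were grown on gelatin in serum medium with LIF, 3 µM of CHIR99021, an inhibitor of the kinase GSK3, and 1 µM of PD0325901, an inhibitor of the kinase MEK. Each genotype is 1 named line with its clone not given, so genotype and clone cannot be told apart. Whether replicates are separate cultures is not stated in the labels, so the p-values reflect variation among the libraries at hand, possibly technical.

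Primitive endoderm is the extraembryonic layer that forms beside the epiblast in the blastocyst, under FGF signals that pass through MEK and ERK. Its cells switch on Gata6, then Sox17 and Gata4, take up maternal proteins through the receptor megalin (Lrp2) and its adaptor Dab2, and lay down a basement membrane. Such membranes are sheets of laminin trimers and a type IV collagen network, linked by nidogens and heparan sulphate proteoglycans. Pluripotent stem cells also make laminin and collagen IV, so the matrix genes are not confined to endoderm.

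The libraries held 16588467 to 26562418 reads in genes. The limit that a count of 0 allows, 3 reads, came to 2.45 to 4.18 normalized counts. These limits, and Poisson intervals of read counts, cover counting error only. A normalized count is the authors' read count divided by 1 size factor per library. Pearson r of log2 levels between replicates was 0.959 for conv-dSVA_F&D, 0.974 for conv-dSVA_F and 0.979 for conv-dSVA_D, and conv-dSVA_F&D replicate 1 had a higher r with each library of the other 3 lines (0.961 to 0.969) than with its own replicate 2. Counts under the mouse symbol of the edited gene, Taf1, stood at 38.0%, 18.8% and 13.5% of the MK6 level in conv-dSVA_F&D, conv-dSVA_F and conv-dSVA_D. The payload of these lines is labelled hTAF1, and reads were handled on mm10. How fully payload reads were counted as Taf1 was not tested. The pluripotency factors Pou5f1 and Nanog had at least 18394 and 16246 normalized counts in every library. Tests used limma on log2 of the normalized count plus 1, which understates differences of low genes, over all 7 libraries, with 2-sided p-values adjusted by the Benjamini-Hochberg method over all 15240 genes and a threshold of 0.05. Differences are log2 of the first line over the other, ± the standard error. Intervals of differences come from this limma standard error, so they reflect variation among the libraries. MK6 has 1 library and was assumed to vary like the converted lines, as was any line reduced to 1 library when a replicate was left out.

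Promoter windows from RefSeq (GRCm38.p6, 250 bases before and 50 after each start) were read for 6 of the 10 symbols. The 3 shown are the start region that Col4a1 and Col4a2 share, whose levels moved together over the libraries, and those of Lrp2, which passed the test in 3 comparisons, and of its adaptor Dab2. The Col4a2 window covers chr8:11312555-11312854 on the plus strand, and its capitals mark the 22 bases between the Col4a2 start at 11312805 and the start of Col4a1, which is read from the minus strand at 11312826.
Col4a2: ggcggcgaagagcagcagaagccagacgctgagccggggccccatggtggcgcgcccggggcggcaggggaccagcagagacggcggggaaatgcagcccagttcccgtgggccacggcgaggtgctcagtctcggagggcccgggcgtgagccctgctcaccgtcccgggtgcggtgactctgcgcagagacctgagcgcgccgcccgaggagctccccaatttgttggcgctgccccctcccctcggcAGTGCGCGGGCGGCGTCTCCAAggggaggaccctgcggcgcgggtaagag
The Lrp2 window covers chr2:69585980-69586279 on the minus strand, and its capitals mark the GC box GGGCGG.
Lrp2: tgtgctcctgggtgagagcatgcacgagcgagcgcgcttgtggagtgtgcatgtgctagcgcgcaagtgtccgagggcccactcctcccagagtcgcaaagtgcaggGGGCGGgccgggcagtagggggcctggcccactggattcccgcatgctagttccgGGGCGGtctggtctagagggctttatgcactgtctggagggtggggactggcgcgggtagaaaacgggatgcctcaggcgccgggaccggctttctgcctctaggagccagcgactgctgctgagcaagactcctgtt
The upstream Dab2 window covers chr15:6299539-6299838 on the plus strand, and its capitals mark the GATA core GATAA, which appears as TTATC where it lies on the other strand.
Dab2: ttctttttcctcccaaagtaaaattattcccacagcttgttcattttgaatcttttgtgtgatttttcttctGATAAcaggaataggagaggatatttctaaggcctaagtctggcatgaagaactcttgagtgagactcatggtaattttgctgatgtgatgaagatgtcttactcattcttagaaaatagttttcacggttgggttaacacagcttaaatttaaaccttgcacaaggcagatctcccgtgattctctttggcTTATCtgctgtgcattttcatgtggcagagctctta
Searched on both strands, GATAA was present 2 times in this Dab2 window, at 178 bases before and 15 bases into the transcript, and 0 times in the second Dab2 window and in those of Lrp2, Lamb1, Col4a1, Col4a2 and Sparc. It was present in 25.4% of all 32851 windows of this length. GGGCGG was present 3 times in the Col4a2 window, 2 times in those of Lrp2 and of Lamb1, and 1 time in that of Col4a1. It was present 0 times in the windows of Sparc and Dab2, and in 35.7% of all windows. The Col4a1 and Col4a2 windows overlap, and the match 10 bases into Col4a1 is the same site as the one 8 bases into Col4a2, within the 22 capitals. The motifs do not overlap, and a match only says that these letters are there.

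Per kb of exon (GENCODE M21 lengths), the transcription factors and Dab2 were the lowest of the 10 genes and Sparc the highest. The mean over 7 libraries was lowest for the transcription factors, with 1.58 normalized counts per kb for Gata6, 3.32 for Sox17 and 7.17 for Gata4. Dab2 had 8.28 per kb. The mean was 55.3 per kb for Col4a2, 97.6 for Lrp2, 184 for Lama1, 188 for Col4a1 and 202 for Lamb1. Lama1, Col4a1 and Lamb1 lay within the spread of one another over libraries. Sparc had 2720 per kb. For comparison, Pou5f1 had 9404 and Nanog 9901 per kb. The primitive endoderm regulators were thus far below Pou5f1 and Nanog, and the matrix genes were between them. Other pluripotency genes lay on both sides of Sparc, with Sox2 at 2386 and Klf4 at 947 per kb below it and Tdgf1 at 8024 above it. In bulk RNA, fewer cells of a type and less RNA per cell cannot be told apart.

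**Figure D1:**
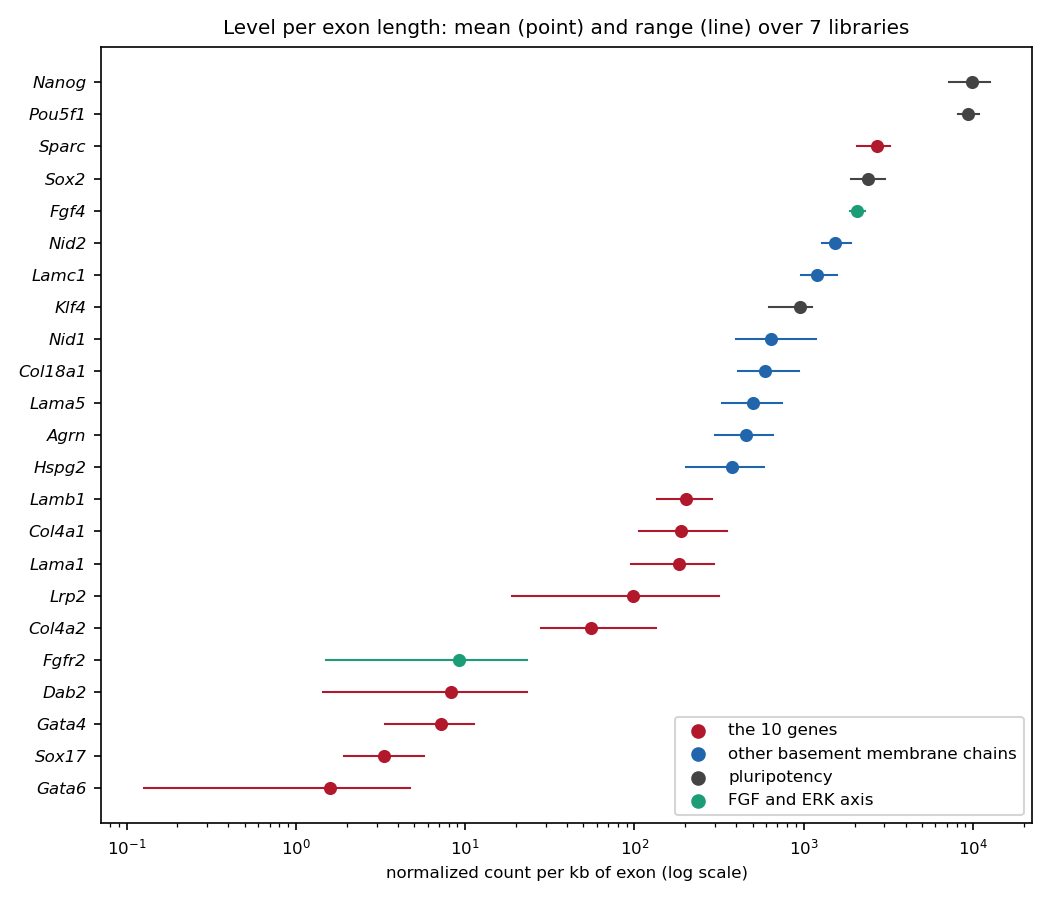
Normalized count per kb of exon on a log axis for the 10 genes and for genes of 3 other lists, with the mean (point) and the range (line) over 7 libraries. Gata6, Sox17, Gata4 and Dab2 lie at the low end at 1.58 to 8.28 per kb, and Sparc is the highest of the 10 at 2720, below Pou5f1 and Nanog at 9404 and 9901.

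Lrp2 had the largest differences among the members that passed the test: it was highest in conv-dSVA_F, intermediate in conv-dSVA_F&D and lowest in conv-dSVA_D, and all 3 pairwise differences passed the test. Lamb1 was higher in conv-dSVA_F&D libraries than in conv-dSVA_F. No other member passed in limma with all 7 libraries. Against conv-dSVA_D, 1 of the 10 members passed in conv-dSVA_F&D, where 3.16% of all genes tested passed (1.96% as higher and 1.21% as lower), and 8 of 10 had an unadjusted p under 0.05, as did 3022 of all genes. The median member difference there was 1.05, against -0.0029 over all genes. Against conv-dSVA_F, 2 members passed in conv-dSVA_F&D, 1 in each direction, where 3.92% of all genes passed (1.71% as higher and 2.21% as lower), and the median member difference was 0.17, against -0.01. In conv-dSVA_F against conv-dSVA_D, 1 member passed where 1.35% of all genes did (1.08% as higher and 0.262% as lower), with a median of 0.50, against -0.0072. Between the mean of the converted lines and MK6, limma called 0 of 10 members where 1.15% of all genes passed (0.623% as higher and 0.525% as lower). There 2 members, Lamb1 and Lama1, had an unadjusted p under 0.05, edgeR called 0 and DESeq2 called 2. Over the 4 comparisons in this order, 3022, 3159, 2541 and 2849 of all 15240 genes had an unadjusted p under 0.05 in limma. Counts at that threshold for the lists below are to be read against these. The comparisons among converted lines share libraries, so they are not independent of one another.

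**Figure D2:**
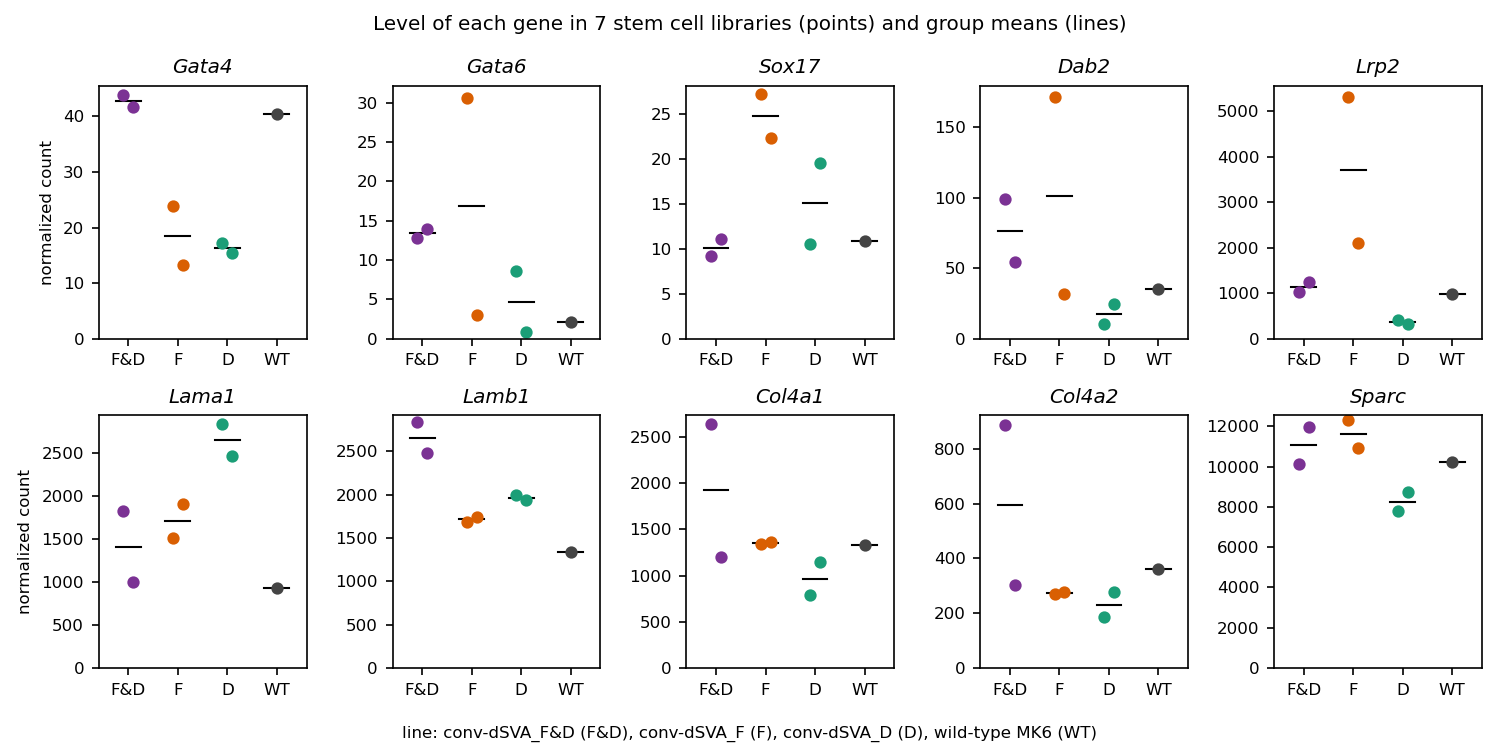
Normalized count of each member in 7 libraries (points) with the mean of each line (short lines), for conv-dSVA_F&D (F&D), conv-dSVA_F (F), conv-dSVA_D (D) and wild-type MK6 (WT). Lrp2 ranges between 318 and 5304 normalized counts, with conv-dSVA_F above, and conv-dSVA_D below, every other library.

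**Figure D3:**
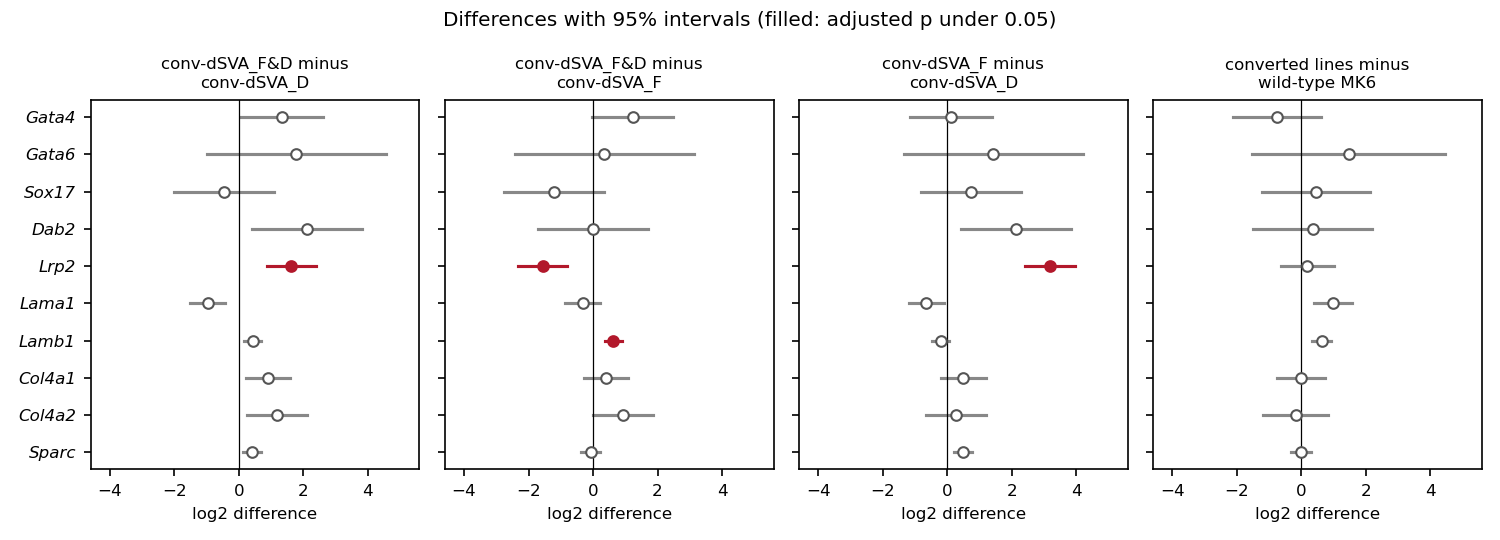
Log2 difference of each member in the 4 comparisons (points) with 95% intervals (lines), filled where the adjusted p was under 0.05. Lrp2 is filled in the 3 comparisons among converted lines, at 1.63, -1.56 and 3.19, and Lamb1 in 1, at 0.63.

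Positions of genes are GENCODE M21 genes on GRCm38. The transcription factors had few reads and no difference in them passed the test. Gata4 (ENSMUSG00000021944, chr14:63198922-63271692, minus strand), a zinc finger factor of primitive and visceral endoderm, had 44.0 and 41.8 normalized counts in conv-dSVA_F&D, 23.8 and 13.2 in conv-dSVA_F, 17.3 and 15.5 in conv-dSVA_D, and 40.4 in MK6. Both conv-dSVA_F&D libraries and MK6 were thus above all 4 libraries of conv-dSVA_F and conv-dSVA_D, which overlapped each other. The difference was 1.34 ± 0.57 against conv-dSVA_D (limma adjusted p = 0.225) and 1.22 ± 0.57 against conv-dSVA_F (adjusted p = 0.254). The reads behind Gata4 numbered 13 to 48 per library.

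Gata6 (ENSMUSG00000005836, chromosome 18), the factor that starts the primitive endoderm programme, had 12.8 and 13.9 normalized counts in conv-dSVA_F&D, 30.6 and 3.05 in conv-dSVA_F, 8.64 and 0.82 in conv-dSVA_D, and 2.2 in MK6. These rest on 14 and 10, 36 and 3, 9 and 1, and 2 reads. The mean of Gata6 over the 7 libraries was 10.3, so it passed the filter of 10 only through conv-dSVA_F replicate 1. It still enters the member medians given above. The highest library was conv-dSVA_F replicate 1, and its own replicate, with an exact 95% Poisson interval of 0.619 to 8.77 reads, was among the lowest, so the 2 conv-dSVA_F libraries lay on either side of both conv-dSVA_F&D libraries. The adjusted p was 0.465 to 0.904 over the 4 comparisons. Gata6 lies on chromosome 18, whose median gene was 0.51 (log2) above MK6 in conv-dSVA_F&D replicate 2 and -0.11 to -0.03 in the other 5 converted libraries. With chromosome medians set equal, the Gata6 difference of conv-dSVA_F&D was 1.48 from conv-dSVA_D, against 1.78 as measured, and 0.045 from conv-dSVA_F, against 0.34 as measured (limma adjusted p = 0.542 and 0.990).

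Sox17 (ENSMUSG00000025902, chr1:4490931-4497354, minus strand), an SRY-box factor of endoderm, had 9.16 and 11.1 normalized counts in conv-dSVA_F&D, 27.2 and 22.3 in conv-dSVA_F, 10.6 and 19.6 in conv-dSVA_D, and 10.9 in MK6. The 2 conv-dSVA_F libraries were above the other 5. The difference of conv-dSVA_F&D from conv-dSVA_F was -1.21 ± 0.69 (limma adjusted p = 0.36), with a 95% interval of -2.76 to 0.34.

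Lrp2 (ENSMUSG00000027070, chr2:69424340-69586065, minus strand) encodes megalin, a giant endocytic receptor of the LDL receptor family. It had 1025 and 1247 normalized counts in conv-dSVA_F&D, 5304 and 2110.3 in conv-dSVA_F, 421 and 318 in conv-dSVA_D, and 983 in MK6. The converted lines did not overlap, and MK6 lay just below the conv-dSVA_F&D libraries. Lrp2 was 9.13-fold higher in conv-dSVA_F than in conv-dSVA_D (log2 difference 3.19 ± 0.34, limma adjusted p = 0.0109). The fold was 5.76 without conv-dSVA_F replicate 1 and 14.5 without replicate 2. In conv-dSVA_F&D it was 3.09-fold higher than in conv-dSVA_D (1.63 ± 0.34, adjusted p = 0.0392) and 2.96-fold lower than in conv-dSVA_F (-1.56 ± 0.34, adjusted p = 0.0391). Against MK6 the mean of the converted lines differed by 0.18 ± 0.37 (adjusted p = 0.846), with converted lines on both sides of it.

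The directions of these 3 differences held without each library in turn, and the calls did not. The conv-dSVA_F and conv-dSVA_D difference lost its call without conv-dSVA_D replicate 1 or 2 (adjusted p = 0.0648 and 0.0679). That of conv-dSVA_F&D from conv-dSVA_D lost it without conv-dSVA_F&D replicate 2 (0.107) and without conv-dSVA_D replicate 1 or 2 (0.153 and 0.231). That of conv-dSVA_F&D from conv-dSVA_F was -0.90 (adjusted p = 0.200) without conv-dSVA_F replicate 1, which is the highest library, and also lost its call without either conv-dSVA_F&D library (0.0798 and 0.0689) or either conv-dSVA_D library (0.0757 and 0.0752). It was -2.23 (adjusted p = 0.0099) without conv-dSVA_F replicate 2. This call was also lost with the libraries of those 2 lines alone (0.0720) and with chromosome medians set equal (0.0657). All 3 calls were lost in limma without the filter on low values (adjusted p = 0.310, 0.308 and 0.175) and without the variance trend (0.248, 0.247 and 0.215), and all 3 held in edgeR and DESeq2 on whole reads.

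Dab2 (ENSMUSG00000022150, chr15:6299788-6440712, plus strand), the clathrin adaptor that binds the tail of megalin, had 98.9 and 54.3 normalized counts in conv-dSVA_F&D, 171 and 31.5 in conv-dSVA_F, 10.6 and 24.5 in conv-dSVA_D, and 34.9 in MK6. Both conv-dSVA_D libraries were below the other 5, and conv-dSVA_F replicate 1 was the highest, as for Lrp2. The difference from conv-dSVA_D was 2.11 ± 0.76 for conv-dSVA_F&D (limma adjusted p = 0.162) and 2.12 ± 0.76 for conv-dSVA_F (adjusted p = 0.200), so neither passed; DESeq2 on whole reads called the second (2.53, adjusted p = 0.0179). In limma the second was 0.92 (adjusted p = 0.806) without conv-dSVA_F replicate 1, the highest library, and 3.33 (adjusted p = 0.0800) without replicate 2. None of the 14 endocytic partners of the pair, which include the megalin chaperone Lrpap1 and the co-receptor Cubn, passed in limma in any of the 4 comparisons, 3, 2, 1 and 2 of them had an unadjusted p under 0.05, edgeR called 0 in each, and DESeq2 called 1, 1, 0 and 0. Lrpap1, at 4049 to 6475 normalized counts, was nearest, with 0.51 ± 0.13 in conv-dSVA_F&D against conv-dSVA_D (adjusted p = 0.0590).

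The summed level of markers of another cell type had a like order over the lines. The summed level of 10 trophoblast markers was 2167 and 2755 normalized counts in conv-dSVA_F&D, 6644 and 2813 in conv-dSVA_F, 1337 and 1659 in conv-dSVA_D, and 2312 in MK6. As for Lrp2, conv-dSVA_F replicate 1 was highest and both conv-dSVA_D libraries were lowest. Most of the sum in conv-dSVA_F replicate 1 came from Krt8, Krt18 and Plet1 (1765, 2310 and 1416). Single markers differed in order. Plet1 was higher in conv-dSVA_D (679 and 849) than in conv-dSVA_F&D (587 and 532). Krt7, Tfap2c and Ascl2 were highest in a conv-dSVA_F&D library (86.1, 612 and 325), and the other markers in conv-dSVA_F replicate 1. The keratins Krt8 and Krt18, intermediate filament genes of simple epithelia including trophoblast, passed in conv-dSVA_F against conv-dSVA_D (3.70 ± 0.43 and 3.55 ± 0.41, limma adjusted p = 0.0114 for both). Without conv-dSVA_F replicate 1 these were 2.93 and 2.72 (adjusted p = 0.0689 and 0.0215), and without replicate 2 they were 4.46 and 4.37 (0.0031 and 0.00055). The defining factors were low, with Elf5 or Hand1 at 0 in 4 of 7 libraries and Cdx2 at 10.6 to 168 normalized counts. The part of these markers in the Lrp2 result was not tested.

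Lama1 and Lamb1 encode the alpha and beta chains that join Lamc1 in laminin-111, the first laminin of the embryo. Lama1 (ENSMUSG00000032796, chr17:67697259-67822647, plus strand) had 1828 and 1002 normalized counts in conv-dSVA_F&D, 1509 and 1905 in conv-dSVA_F, 2848 and 2475 in conv-dSVA_D, and 929 in MK6. Both conv-dSVA_D libraries were above all others and MK6 was below all others, while conv-dSVA_F&D and conv-dSVA_F overlapped. The difference of conv-dSVA_F&D from conv-dSVA_D was -0.97 ± 0.24 and missed the threshold (limma adjusted p = 0.0633). It passed without conv-dSVA_F&D replicate 1 (-1.41, adjusted p = 0.0099) and in DESeq2 on whole reads (-0.91, adjusted p = 0.0039), and it was -0.54 (adjusted p = 0.141) without replicate 2. Without replicate 1 the difference from conv-dSVA_F passed as well (-0.76, adjusted p = 0.0393), and with all libraries it was -0.33 ± 0.24 (adjusted p = 0.493). The converted lines together were above MK6 in 6 of 6 libraries, by 0.97 ± 0.26 (adjusted p = 0.0957). That difference passed without conv-dSVA_F&D replicate 1 (0.83, adjusted p = 0.0356) or 2 (1.12, adjusted p = 0.0172).

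Lamb1 (ENSMUSG00000002900, chr12:31265234-31329644, plus strand) had 2841 and 2477 normalized counts in conv-dSVA_F&D, 1683 and 1748 in conv-dSVA_F, 1994 and 1939.8 in conv-dSVA_D, and 1343 in MK6. The 4 lines did not overlap, with conv-dSVA_F&D highest and MK6 lowest. Lamb1 was 1.55-fold higher in conv-dSVA_F&D libraries than in conv-dSVA_F (log2 difference 0.63 ± 0.12, limma adjusted p = 0.0250). The adjusted p of this difference was 0.0501 without conv-dSVA_F&D replicate 1, 0.208 and 0.0875 without conv-dSVA_F replicate 1 and 2, and 0.0587 and 0.0585 without conv-dSVA_D replicate 1 and 2, at differences of 0.53 to 0.66. It was 0.0549 with the libraries of those 2 lines alone, 0.15 without the filter on low values and 0.204 without the variance trend. Against conv-dSVA_D, conv-dSVA_F&D was higher by 0.43 ± 0.12 (adjusted p = 0.0842). The converted lines were above MK6 in 6 of 6 libraries by 0.63 ± 0.13, just outside the threshold (adjusted p = 0.0533). This last difference passed without conv-dSVA_F&D replicate 1 or 2 (adjusted p = 0.0403 and 0.0272).

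The balance of the 2 laminin chains differed in the order of the lines. The ratio of Lama1 to Lamb1 normalized counts was 0.644 and 0.404 in conv-dSVA_F&D, 0.897 and 1.09 in conv-dSVA_F, 1.43 and 1.28 in conv-dSVA_D, and 0.692 in MK6. The 3 converted lines did not overlap in this ratio, and MK6 lay between conv-dSVA_F&D and conv-dSVA_F. The gamma chain Lamc1 had a higher level per kb, with a mean of 1202 against 184 for Lama1 and 202 for Lamb1. It had 12967 and 11888 normalized counts in conv-dSVA_F&D, 8857 and 10137 in conv-dSVA_F, 9470.5 and 8004 in conv-dSVA_D, and 8305 in MK6. Its difference in conv-dSVA_F&D was 0.51 ± 0.13 from conv-dSVA_D (limma adjusted p = 0.0595).

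Col4a1 and Col4a2 encode the ubiquitous chains of type IV collagen and lie head to head on chromosome 8. Col4a1 (ENSMUSG00000031502, chr8:11198423-11312826, minus strand) had 2641.5 and 1204 normalized counts in conv-dSVA_F&D, 1340.15 and 1359.8 in conv-dSVA_F, 792 and 1145 in conv-dSVA_D, and 1333 in MK6. Col4a2 (ENSMUSG00000031503, chr8:11312805-11449287, plus strand) had 887 and 302 normalized counts in conv-dSVA_F&D, 271 and 277 in conv-dSVA_F, 185 and 278 in conv-dSVA_D, and 361 in MK6. For both genes conv-dSVA_F&D replicate 1 was far above the other 6 libraries and conv-dSVA_D replicate 1 was lowest. Pearson r between the pair was 0.96 over the 7 libraries, the highest of all member pairs; the libraries share lines, so these are not 7 independent points.

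Against conv-dSVA_D, conv-dSVA_F&D differed by 0.90 ± 0.31 for Col4a1 (limma adjusted p = 0.140) and by 1.19 ± 0.42 for Col4a2 (adjusted p = 0.151). Without conv-dSVA_F&D replicate 2 both passed, at 1.47 (adjusted p = 0.0148) and 1.96 (adjusted p = 0.0147), as they did against conv-dSVA_F, at 0.97 (0.0452) and 1.69 (0.0224). Without replicate 1 the differences from conv-dSVA_D were 0.34 and 0.41 and did not pass, so 1 library decided these values. DESeq2 on whole reads called Col4a2 in both comparisons (adjusted p = 0.0094 and 0.0422).

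The ratio of Col4a1 to Col4a2 normalized counts was 2.98 and 3.98 in conv-dSVA_F&D, 4.95 and 4.90 in conv-dSVA_F, 4.27 and 4.12 in conv-dSVA_D, and 3.69 in MK6. It was highest in both conv-dSVA_F libraries and lowest in conv-dSVA_F&D replicate 1, the library with the most of both transcripts. The median gene of chromosome 8 differed from MK6 by 0.0069 and -0.0098 (log2) in conv-dSVA_F&D. It was 0.63 and 0.44 above MK6 in conv-dSVA_F and 0.07 and 0.24 in conv-dSVA_D. With chromosome medians set equal, the difference of Col4a2 between conv-dSVA_F and conv-dSVA_D turned to -0.13, against 0.27 ± 0.42 as measured (limma adjusted p = 0.803). The differences of conv-dSVA_F&D from conv-dSVA_F were then 0.93 for Col4a1 and 1.45 for Col4a2 (adjusted p = 0.143 and 0.109), against 0.40 and 0.92 as measured. The 22 shared bases are on opposite strands. No source used here gives the strand setting of the counting, and the antisense genes annotated over Col4a1, Col4a2, Dab2 and Sox17 had 0 reads. A transcript annotated on the opposite strand over Gata6 has no entry among the counts, so its reads are not known.

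**Figure D4:**
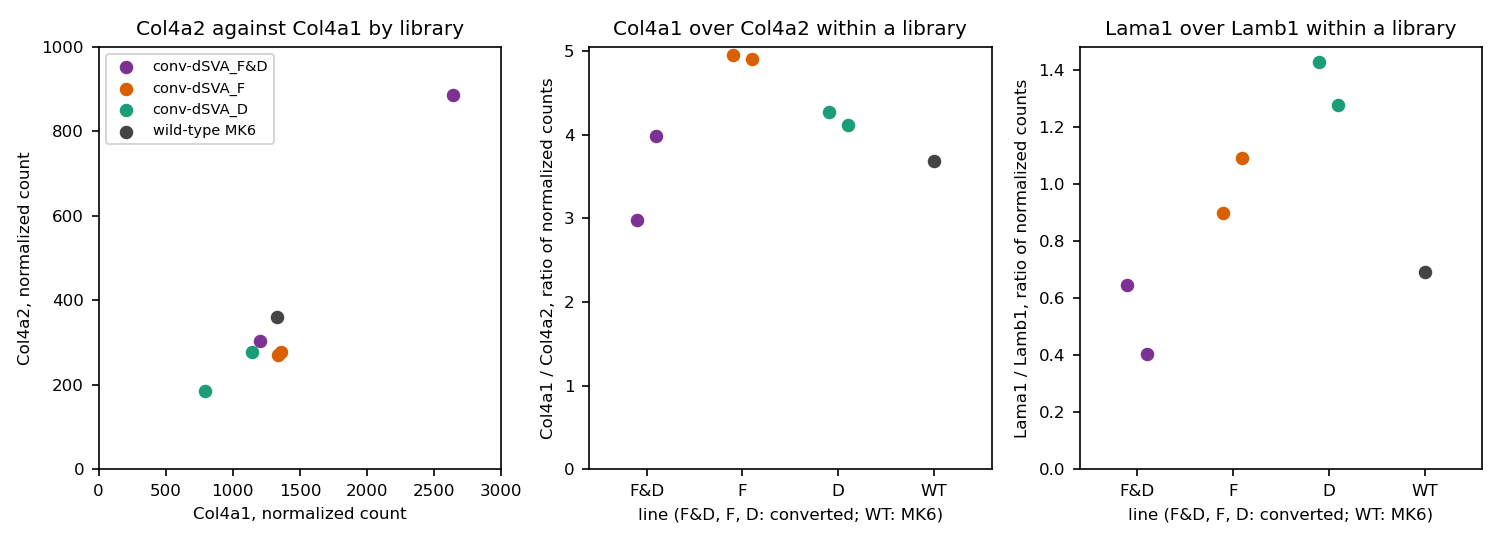
Left, Col4a2 against Col4a1 normalized counts in 7 libraries; middle and right, the ratios Col4a1 to Col4a2 and Lama1 to Lamb1 in each library by line. Col4a1 and Col4a2 rise together, with conv-dSVA_F&D replicate 1 at 2641.5 and 887, and the Lama1 to Lamb1 ratio lies at 0.404 to 0.644 in conv-dSVA_F&D and 1.28 to 1.43 in conv-dSVA_D.

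Sparc (ENSMUSG00000018593, chr11:55394500-55423183, minus strand), a collagen-binding glycoprotein abundant in parietal endoderm, had the highest level per kb of the 10. It had 10126 and 11976 normalized counts in conv-dSVA_F&D, 12318 and 10933 in conv-dSVA_F, 7789 and 8744 in conv-dSVA_D, and 10241 in MK6. Both conv-dSVA_D libraries were below the other 5, which overlapped. Sparc was higher than in conv-dSVA_D by 0.42 ± 0.13 in conv-dSVA_F&D (limma adjusted p = 0.107) and by 0.49 ± 0.13 in conv-dSVA_F (adjusted p = 0.0915). The second difference passed with the libraries of those 2 lines alone (0.0474) and in DESeq2 (0.0188). Over the 7 libraries r with Sparc was 0.87 for Lrp2 and 0.80 for Dab2, and -0.71 for Lama1.

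The genes most alike to each member over the 7 libraries were taken from 9837 genes with a mean of at least 100, by Pearson r of log2 levels. For Lrp2 they were Man1a2 (r = 0.99), Tmem170 (0.98) and Map1a (0.98), and for Lama1 they were Alg1, Fbxo28 and Itpripl1 (0.99, 0.99 and 0.98). For Col4a1 they were Cdip1 (0.98), Ppm1l (0.96) and Ethe1 (0.96), and for Lamb1 they were Rnf111 (0.99), Gnai2 (0.98) and Ssh1 (0.97). For Sox17 they were Ogfod1, Rbmxl1 and Rfwd3 (0.99, 0.98 and 0.98), all on chromosome 8, whose median was raised in the same conv-dSVA_F libraries. With 7 libraries from 4 lines, r is a description only.

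Among the 22 other basement membrane genes, 14 were tested and several were higher in conv-dSVA_F&D. Against conv-dSVA_D, 4 of 14 passed as higher, where 1.96% of all genes did, and 0 as lower: Lama5 (1.07 ± 0.11, limma adjusted p = 0.0046), the link protein Nid1 (1.05 ± 0.18, 0.0208), Lama3 (1.33 ± 0.28, 0.0373) and the proteoglycan Agrn (0.50 ± 0.11, 0.0495). There edgeR called 3 as higher and DESeq2 called 8. Against conv-dSVA_F, 3 of 14 passed as higher, where 1.71% of all genes did: Agrn (1.09 ± 0.11, 0.00875), Nid1 (1.14 ± 0.18, 0.0176) and the collagen Col18a1 (0.84 ± 0.17, 0.0282). There edgeR called 3 as higher and DESeq2 called 4. With 1 library left out, the difference from conv-dSVA_D was 0.99 to 1.66 for Lama3 and 0.40 to 0.59 for Agrn. That of Col18a1 from conv-dSVA_F was 0.64 to 1.04. The median of the 14 was 0.50 in both comparisons, against the all-gene medians of -0.0029 and -0.01 given above. In conv-dSVA_F against conv-dSVA_D, Lama5 (0.63 ± 0.11, 0.0310) was higher and Agrn (-0.59 ± 0.11, 0.0420) was lower. Against MK6, limma called 0 of 14 for the converted lines, 3 had an unadjusted p under 0.05, edgeR called 0 and DESeq2 called 1. The chains Col4a3 and Col4a4 were at 0 in all 7 libraries, which allows up to 4.18 normalized counts.

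Agrn had 6117 and 5622 normalized counts in conv-dSVA_F&D, 2763 and 2761 in conv-dSVA_F, 4448 and 3886 in conv-dSVA_D, and 4069 in MK6. The 3 converted lines did not overlap, and MK6 lay between the conv-dSVA_D libraries. Nid1 had 8186 and 5238 normalized counts in conv-dSVA_F&D, 2747 and 3219 in conv-dSVA_F, 3169.6 and 3149 in conv-dSVA_D, and 5264 in MK6. Its level in conv-dSVA_F&D replicate 1 stood apart, as for Col4a1 and Col4a2. Lama3 lies on chromosome 18, and its highest library, conv-dSVA_F&D replicate 2 with 1488 normalized counts, was the one with the raised chromosome 18 median. With chromosome medians set equal, its difference was 1.03 (limma adjusted p = 0.0493).

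**Figure D5:**
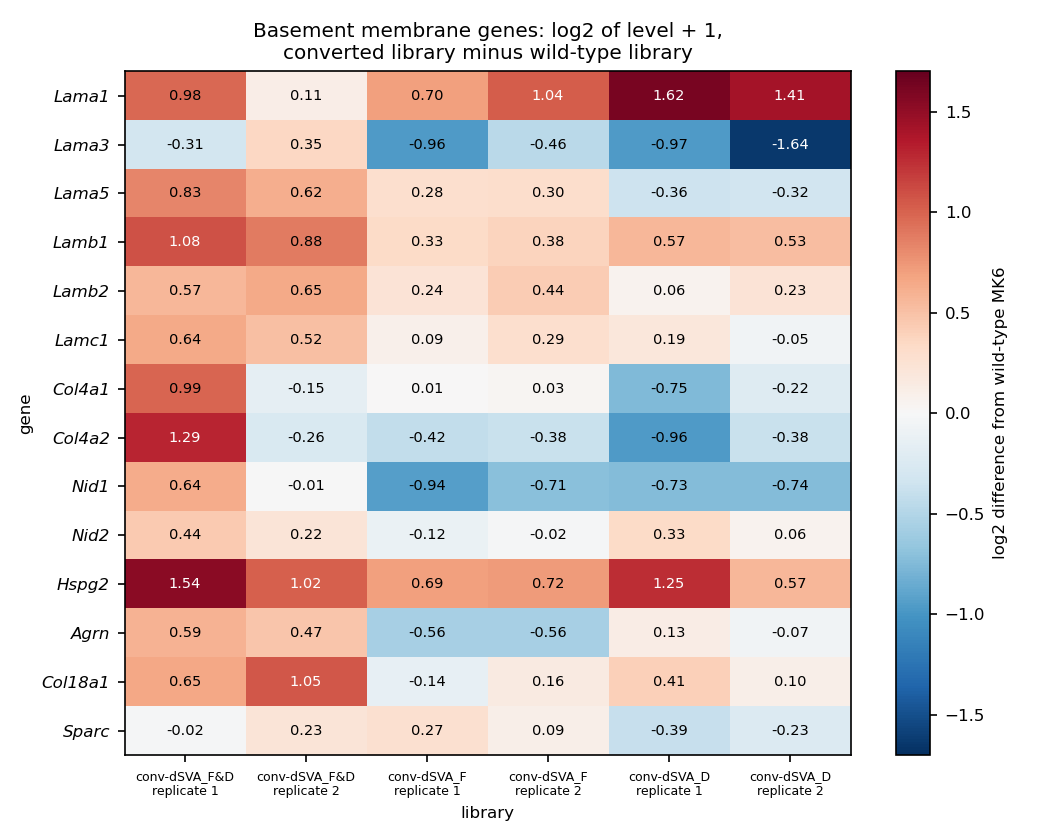
Log2 difference of 14 basement membrane genes from the MK6 library in each of the 6 converted libraries, printed in the cells. The conv-dSVA_F&D columns are mostly positive. Lama1, Lamb1, Lamb2 and Hspg2 are positive in all 6, and Nid1 lies at -0.94 to -0.71 in the 4 libraries of conv-dSVA_F and conv-dSVA_D.

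Receptors and processing enzymes of these proteins differed in part. Of 15 matrix receptors tested, the laminin receptor subunit Itgb4 (1.85 ± 0.31, limma adjusted p = 0.0171) and the integrin Itgb5 (0.60 ± 0.13, 0.0409) were higher and the laminin receptor Bcam (-0.65 ± 0.14, 0.0398) was lower in conv-dSVA_F&D libraries than in conv-dSVA_D. Against conv-dSVA_F, Itgb5 (0.77 ± 0.13, 0.0190) and the collagen receptor Ddr2 (1.04 ± 0.25, 0.0481) were higher and Bcam (-0.74 ± 0.14, 0.0234) was lower. Itga3, a laminin-binding integrin, was higher in conv-dSVA_F than in conv-dSVA_D (0.96 ± 0.18, 0.0399), and Itga5, the fibronectin receptor chain, was higher in the converted lines than in MK6 (0.81 ± 0.14, 0.0393). Of 17 collagen-processing genes tested, the prolyl hydroxylase subunit P4ha1 (0.94 ± 0.19, 0.0311) and the lysyl hydroxylase Plod3 (0.72 ± 0.16, 0.0421) were higher in conv-dSVA_F&D libraries than in conv-dSVA_F. MK6 was above both conv-dSVA_F&D libraries for P4ha1 (1412 normalized counts, against 1331 and 1341) and Itgb5 (1526, against 1470 and 1425). It lay between them for Ddr2 (678, against 754 and 440) and Bcam (4482, against 4998 and 3980). It was below both for Plod3 (667, against 781 and 935) and Itgb4 (112, against 231 and 174). With chromosome medians set equal, the limma adjusted p was 0.0552 for P4ha1, 0.0663 for Plod3 and 0.0733 for Ddr2. Limma called 0 of these 17 in the other 3 comparisons, with 6, 2 and 6 at an unadjusted p under 0.05; there edgeR called 0, 0 and 1, and DESeq2 called 5, 2 and 1.

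Few other genes of primitive endoderm and its derivatives passed, and their levels differed widely. Lrpap1, the visceral endoderm lipoprotein gene Apoe (3484 to 6709 normalized counts) and the filament gene Vim (1661 to 4267) were abundant in every library, while several defining genes were near 0. Of 12 further primitive endoderm genes, 7 were tested, and Cited1, a transcriptional coactivator, was higher in conv-dSVA_F&D libraries than in conv-dSVA_D (1.28 ± 0.27, limma adjusted p = 0.0408). Cited1 had 305 and 230 normalized counts in conv-dSVA_F&D, 97.0 and 122 in conv-dSVA_D, and 297 in MK6. Limma called 0 of 7 in each of the other 3 comparisons, with 1, 2 and 3 at an unadjusted p under 0.05. There edgeR called 0 in each and DESeq2 called 1, 1 and 0. Pdgfra, the receptor used to mark primitive endoderm, had 20.1 and 18.1 normalized counts in conv-dSVA_F&D, 47.6 and 16.2 in conv-dSVA_F, 31.7 and 12.2 in conv-dSVA_D, and 16.4 in MK6, so the lines overlapped. Of 12 visceral endoderm genes 6 were tested and limma, edgeR and DESeq2 each called 0 in every comparison, with limma at 2, 2, 2 and 0 at an unadjusted p under 0.05. The visceral products Afp and Ttr had at most 7.66 and 2.75 normalized counts. Of 9 parietal endoderm genes tested, limma called Nid1 alone, in the 2 comparisons given above, and 0 in the other 2, with 3 and 1 at an unadjusted p under 0.05. Over the 4 comparisons edgeR called 1, 1, 0 and 0 of these genes and DESeq2 called 3, 1, 1 and 0. Of 5 definitive endoderm and streak genes limma called 0 in each, with 0, 0, 0 and 1 at an unadjusted p under 0.05; edgeR called 0 in each and DESeq2 called 1, against MK6.

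The calls named for genes outside the 10 were made at the edge of this design. In 38 cases of a gene in a comparison, directions held under every alternative tried, and 0 of 38 kept its call without each library in turn. The 13 fibroblast and feeder markers summed to 585 and 522 normalized counts in conv-dSVA_F&D, 556 and 507 in conv-dSVA_F, 602 and 635 in conv-dSVA_D, and 979 in MK6, with Lum at 0 in all 7 libraries and Postn at 0 in all 6 converted ones. The sum was lower in all 6 converted libraries than in the 1 of MK6, and single markers differed in direction. Acta2 (4.18 to 115 normalized counts in converted libraries, 299 in MK6) and Col1a2 (0 to 8.36, against 96.0 in MK6) were lower in all 6. Fbn1 was above its MK6 level of 72.0 in 5 of 6. The part of these markers in the matrix results was not tested. Of 8 such markers tested, limma called Acta2 alone, as lower in conv-dSVA_F&D libraries than in conv-dSVA_F (-3.42 ± 0.66, adjusted p = 0.0263; -2.62 and 0.0582 without conv-dSVA_F&D replicate 2, -4.22 and 0.0181 without replicate 1). In the other 3 comparisons limma called 0, with 2, 3 and 2 at an unadjusted p under 0.05, where edgeR called 0, 0 and 2 and DESeq2 called 1, 1 and 2.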

How the data were processed

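The authors deposited normalized counts per gene, a signal made, per the file and its values, by dividing gene counts by 1 size factor per library and rounding to 2 decimals. Reads were handled, per the submitters' processing notes, with featureCounts 1.6.3, STAR 2.7.3 and Trimmomatic 0.36, and DESeq2, deepTools 3.1.0 and Picard 2.18.20 are also listed, on mm10; the strand setting and annotation are not given in the sources used here. The 7 columns were matched to samples by their names. The 3 other samples of the series, a pre-conversion stem cell library and striatal libraries, were not analysed here.

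Levels were tested on log2 of the normalized count plus 1 with limma 3.58.1 (lmFit, eBayes with a variance trend) in R 4.3.3. Genes needed a mean of at least 10. The fit had 1 mean per line, 3 residual and 6.80 prior degrees of freedom, and no batch term, since the labels name none. Whole reads were recovered from the steps between values, with 100% of positive values within 0.1 read of a whole number, and tested with edgeR 4.0.16, whose quasi-likelihood test called 437, 560, 198 and 271 genes in the 4 comparisons in the order of the report, and with DESeq2 1.42.0. Other alternatives were pseudocounts of 0.5 and 8, no filter, no variance trend, the libraries of both sides alone, TMM library sizes, chromosome medians set equal, and each library left out. Scripts were tested on simulated data. Gene lengths and positions come from the GENCODE M21 annotation of GRCm38, which held 50618 of the 54456 symbols (93.0%). Chromosome medians are over genes with a mean of at least 50, as log2 differences from the MK6 library.

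The rule for names took all 10 members and Taf1, from each list the count called and up to 4 genes with the smallest p in each comparison, and for each member the 3 genes with the highest r. Genes named for being at 0, as the highest or defining markers of a list, or for their order over the libraries were chosen after their values were seen. One gene of a list is not reported here. The members and lists were chosen with earlier results of these data known.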

Additional observations from a re-analysis of the deposited data

How the results depend on the processing

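Member differences changed side of the threshold more often than direction: of 620 values under the alternatives, 546 kept both, 26 lost a call, 23 gained one and 25 changed sign. Members called in conv-dSVA_F&D against conv-dSVA_D were 1 in limma as reported, 0 without the filter or the trend, 3 in DESeq2, and 0 to 2 with 1 library left out; against conv-dSVA_F they were 2, with 0 without the filter, without the trend or with both sides alone, 1 with chromosome medians equal, and 0 to 3 with 1 library left out. In conv-dSVA_F against conv-dSVA_D they were 1, with 0 without the filter or the trend, 3 with both sides alone or in DESeq2, and 0 to 2 with 1 library left out. Against MK6 they were 0, with 1 at a pseudocount of 8 or with chromosome medians equal, 2 in DESeq2, and 0 to 2 with 1 library left out. All genes called in conv-dSVA_F&D against conv-dSVA_D were 482, with limma at 0 without the filter (3823 at an unadjusted p under 0.05) or the trend (2452), 246 with both sides alone, 1012 in DESeq2, and 0 to 765 with 1 library left out. Against conv-dSVA_F they were 597, with limma at 0 without the filter (4058 unadjusted) or the trend (2535), 200 with both sides alone, 1152 in DESeq2, 168 with chromosome medians equal, and 0 to 865 with 1 library left out. In conv-dSVA_F against conv-dSVA_D they were 205, with 0 without the filter (3451 unadjusted), 1 without the trend, 504 with both sides alone, 710 in DESeq2, and 0 to 485 with 1 library left out. Against MK6 they were 175, with 303 at a pseudocount of 8, 906 without the filter, 1 without the trend, 271 in edgeR, 804 in DESeq2, and 2 to 599 with 1 library left out. Sign changes outside these left-out libraries were Gata6 in conv-dSVA_F&D against conv-dSVA_F (-0.36 in edgeR, -0.34 in DESeq2), Col4a2 in conv-dSVA_F against conv-dSVA_D (-0.13 with chromosome medians equal), and, against MK6, Col4a1 (0.045 in edgeR, 0.029 in DESeq2) and Sparc (0.0063 in edgeR, 0.0033 with TMM). With 1 library left out, signs changed in conv-dSVA_F&D against conv-dSVA_F for Gata6 (-1.14 to 1.83), Dab2 (-1.21 to 1.19), Lama1 (-0.76 to 0.11), Col4a1 (-0.17 to 0.97) and Sparc (-0.20 to 0.045), in conv-dSVA_F against conv-dSVA_D for Gata4 (-0.29 to 0.51), Gata6 (-0.049 to 2.92) and Col4a2 (-0.019 to 0.56), and against MK6 for Dab2 (-0.054 to 0.75), Lrp2 (-0.041 to 0.40), Col4a1 (-0.20 to 0.17), Col4a2 (-0.44 to 0.075) and Sparc (-0.049 to 0.032). The cause was not tested. No paired analysis was possible because the labels give no replicate numbers. Leaving out the MK6 library leaves no comparison with it. At 1 to 48 reads per library, Gata4, Gata6 and Sox17 cannot show small differences at this depth.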

Other observations

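Genes of the FGF and ERK axis, which directs cells to primitive endoderm, were all 15 tested. In the 4 comparisons limma called 1, 1, 0 and 2 of them, where 3.16%, 3.92%, 1.35% and 1.15% of all genes passed. Spry4, a feedback inhibitor of the pathway, was lower in conv-dSVA_F&D libraries than in conv-dSVA_D (-2.32 ± 0.44, limma adjusted p = 0.0271) and than in conv-dSVA_F (-2.10 ± 0.44, 0.0339), and higher in the converted lines than in MK6 (3.75 ± 0.48, 0.0200). Its levels were 148 and 393 normalized counts in conv-dSVA_F&D, 1025 and 1055 in conv-dSVA_F, 1811 and 803 in conv-dSVA_D, and 49.1 in MK6. MK6 was thus below all 6 converted libraries, and conv-dSVA_F&D below the other 4. Dusp6, Etv4 and Spred1 were also lowest in MK6 (241, 311 and 892 normalized counts). Etv5 was highest in MK6 (5943), and Spry2 had 1845 to 2551 over the libraries. Spry4 lies on chromosome 18, whose median was 0.51 above MK6 in conv-dSVA_F&D replicate 2. With chromosome medians set equal, its differences were -2.61, -2.40 and 3.73 (limma adjusted p = 0.0128, 0.0195 and 0.0102). The first was -1.73 and 0.214 without conv-dSVA_D replicate 1, -2.90 and 0.0603 without replicate 2, -1.62 and 0.0445 without conv-dSVA_F&D replicate 1, and -3.02 and 0.0127 without replicate 2. The second was -1.40 without conv-dSVA_F&D replicate 1 and -2.80 without replicate 2, the extremes over all libraries left out. The third was 3.51 to 3.98 with 1 converted library left out. No Spry4 call was kept without each library in turn. Fgfr1, a receptor of the pathway on chromosome 8, was higher in the converted lines than in MK6 (0.81 ± 0.16, 0.0486). With chromosome medians set equal it was 0.57 (adjusted p = 0.0722), and 4 of 8 alternatives other than leaving out a library called it. Fgfr2, the receptor enriched in primitive endoderm, had 57.7 and 163 normalized counts in conv-dSVA_F&D, 238 and 92.4 in conv-dSVA_F, 45.1 and 15.5 in conv-dSVA_D, and 55.7 in MK6, and did not pass (2.44 ± 0.66 in conv-dSVA_F against conv-dSVA_D, adjusted p = 0.110).

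Gata2, a relative of Gata4 and Gata6 known from blood and trophoblast, had 98.9 and 107 normalized counts in conv-dSVA_F&D, 1133 and 278 in conv-dSVA_F, 65.3 and 98.8 in conv-dSVA_D, and 51.3 in MK6. It was higher in conv-dSVA_F than in conv-dSVA_D (2.79 ± 0.54, limma adjusted p = 0.0426) and lower in conv-dSVA_F&D libraries than in conv-dSVA_F (-2.44 ± 0.54, 0.0408). Without conv-dSVA_F replicate 1 these were 1.78 and -1.43 (adjusted p = 0.339 and 0.256), without replicate 2 they were 3.80 and -3.45 (0.0099 and 0.0124), and with chromosome medians set equal 2.50 and -2.04 (0.0555 and 0.0950). Both conv-dSVA_F libraries were above the other 5, and replicate 1 was the highest, the same library that was highest for Lrp2, Dab2, Gata6 and Sox17. Among pluripotency genes, Nanog was lower in conv-dSVA_F&D libraries than in conv-dSVA_D (-0.65 ± 0.13, limma adjusted p = 0.0282), and Klf2 was higher in conv-dSVA_F&D libraries than in conv-dSVA_F (0.69 ± 0.12, 0.0199). Nanog lies on chromosome 6, whose median differed from MK6 by 0.15 and 0.14 (log2) in conv-dSVA_D and by 0.0043 and -0.013 in conv-dSVA_F&D. With chromosome medians set equal, the Nanog difference was -0.54 (limma adjusted p = 0.0476). Klf2 lies on chromosome 8, and with chromosome medians set equal its difference was 1.22 (adjusted p = 0.0059). Among 4 endothelial and blood markers tested, the receptor Tie1 was higher than in conv-dSVA_D in conv-dSVA_F&D (3.21 ± 0.69, limma adjusted p = 0.0408) and in conv-dSVA_F (4.10 ± 0.69, 0.0284). With 1 library left out these were 2.77 to 3.65 and 3.03 to 5.17, and neither call was kept without each library in turn. Tie1 was highest in MK6 (224 normalized counts) and lowest in conv-dSVA_D (5.76 and 4.08), with 72.3 and 39.0 in conv-dSVA_F&D and 209 and 46.7 in conv-dSVA_F. Pecam1 was lower in the converted lines than in MK6 (-0.74 ± 0.14, 0.0430). Ascl2, a trophoblast factor, was higher in conv-dSVA_F&D libraries than in conv-dSVA_D (1.30 ± 0.28, 0.0428), as were Krt8 (2.34 ± 0.43, 0.0254) and Krt18 (2.08 ± 0.41, 0.0303).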
